A study of Mus musculus with 48 samples.

Results

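Fibroblastic reticular cells (FRCs) and lymphatic endothelial cells (LECs) of mouse lymph nodes were compared for their response to lymphoma, as the log2 change of FRCs between tumor and naive mice minus the log2 change of LECs between tumor and naive mice. The samples were chosen by title, and these are 12 of the 24 biological replicates of the series, or 24 of its 48 array strips. Each of the 4 groups, naive FRCs, tumor FRCs, naive LECs and tumor LECs, held 3 replicates read on 2 strips each. All mice were C57BL/6N. The tumor groups had received 200000 to 400000 Eμ-*Myc* lymphoma B cells, which carry a *Myc* transgene under an immunoglobulin enhancer, and had a tumor load of 4% to 10% of lymphocytes, while the naive groups had received no tumor cells. FRCs were sorted as CD31- gp38+ cells and LECs as CD31+ gp38+ cells after depletion of CD45+ cells. Each array received 80 ng of RNA pooled from 4 to 6 sorts, so a replicate is a pool and not a single animal. The labels do not say whether the replicates came from separate animals, and p-values then measure only the spread between these samples.

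FRCs are the fibroblasts that span the T cell zone of a lymph node. They build the conduit network of matrix fibers and secrete CCL19 and CCL21, which guide lymphocytes and dendritic cells, and a subset beneath the capsule displays the addressin MAdCAM-1. LECs line the sinuses that carry lymph through the node and are kept in their identity by the transcription factor PROX1. Both cell types carry podoplanin (gp38), produce chemokines and answer lymphotoxin and NF-κB signals, and both multiply when a node enlarges.

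The sorted cells carried the markers of their labels. *Prox1* had log2 signals of 13.20, 13.23 and 13.37 in naive LECs and of 12.80, 12.61 and 12.77 in tumor LECs, against values between 5.47 and 7.53 in the 6 FRC replicates. *Pdgfra*, a receptor of fibroblasts, lay between 13.50 and 14.40 in FRCs and between 8.18 and 9.62 in LECs, well over the background level of 5.62 in both. A background level here is the mode of the probe means over the replicates plus 3 robust SDs. *Pdpn*, the gene of gp38, lay between 14.02 and 14.87 in all 12 replicates. Whether fewer cells of a type or less RNA per cell lies behind a lower signal cannot be told apart in pooled RNA. Each strip read between 947636 and 1033759 beads, and the median probe was covered by 20 to 22 of them. All 6 arrays of a cell type shared 1 slide, with naive replicates in the same 3 places on each, so cell type and slide cannot be told apart, nor can tumor state and place.

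A few replicates stood apart in the markers of other cells. Of 8 pancreas acinar genes tested, 7 were at or near background in 10 of the 12 replicates and very high in tumor LEC replicates 1 and 2. *Try4*, a pancreatic trypsin, had log2 signals of 12.90, 10.72 and 4.85 in the 3 tumor LEC replicates, and *Cpa1*, a pancreatic carboxypeptidase, 12.65, 10.64 and 5.41. The eighth gene, *Amy2a5*, read between 14.65 and 15.97 in all 12 replicates. Over the list, the median log2 changes were 4.38 in LECs and -0.03 in FRCs. In LECs 3 of its genes rose (*Cela3b*, *Ctrb1* and *Try4*), against 0.785% of all genes. None of the 8 passed the limma test of the difference, against 7 at an unadjusted p under 0.05. The part of these 2 libraries in other results was not tested beyond leaving them out. Markers of all leukocytes had a median level of 5.83 to 6.10 in naive FRCs and of 6.86, 6.93 and 8.03 in tumor FRCs. In LECs the same median was 6.56 to 7.30 in naive and 7.34 to 8.47 in tumor replicates. None of the 10 differed between the changes (median difference 0.13; 0 at an unadjusted p under 0.05). Naive FRC replicate 3 had the highest naive FRC signal of *Prox1* (7.53) and of *Lyve1*, a hyaluronan receptor of LECs (8.68 against 5.87 and 4.99).

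**Figure D1:**
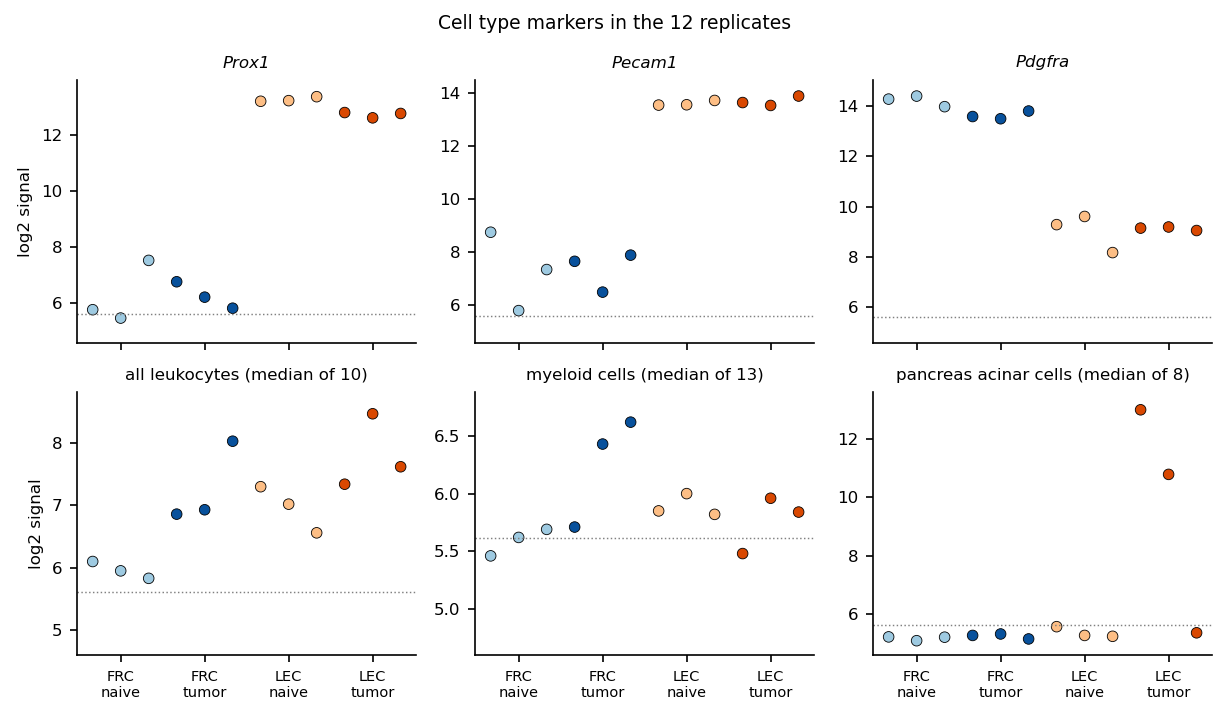
Log2 signal of 3 defining genes and the median log2 signal of 3 marker lists in the 12 replicates (points in replicate order, 3 per group; the dotted line is the background level of 5.62). *Prox1* and *Pecam1* separate LECs from FRCs, *Pdgfra* the reverse, and the pancreas list is at 12.99 and 10.78 in tumor LEC replicates 1 and 2 and near background elsewhere.

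FRCs and LECs answered the tumor with different changes at 80 of 13119 genes. The FRC change lay above the LEC change at 54 genes (0.412% of those tested) and below it at 26 (0.198%). Most of these genes passed the test in FRCs and not in LECs. Of the 54, 47 rose in FRCs alone, 5 fell in LECs alone, *Serpina12* rose in FRCs and fell in LECs, and 1 passed in neither cell type. Of the 26, 20 fell in FRCs alone, 3 rose in LECs alone, *Adamtsl1* and *Flrt1* did both, and *Cd276* passed in neither. The median change of the 54 genes was 1.55 in FRCs and -0.34 in LECs, and that of the 26 genes was -1.34 in FRCs and 0.33 in LECs, on the log2 scale. The FRC groups did not overlap, with tumor higher, in 51 of the 54 (19.5% of all genes), and the LEC groups did not overlap, with tumor lower, in 25 (9.28%). Of the 26, 24 had tumor FRCs entirely lower (20.0%) and 11 had tumor LECs entirely higher (11.3%). These medians and counts describe genes picked by the test itself and support nothing further. Naive LECs had a higher mean signal than naive FRCs in 38 of the 54 genes and in 4 of the 26. These 2 counts are also partly set by the test, since the naive means enter the tested difference, and they support nothing further. Just inside the threshold of 0.05 were *Rerg*, *Scrn1* and *Coch* (adjusted p = 0.0457, 0.0468 and 0.047), and just outside it *Rtl1*, *Postn* and *Gpx1* (0.0502, 0.0503 and 0.0513). Over all genes the median difference was -0.02.

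Tested by themselves, FRCs had 840 genes higher (6.40%) and 540 lower (4.12%) in the tumor group, and LECs had 103 higher (0.785%) and 18 lower (0.137%). The LEC counts became 10 and 1 without tumor LEC replicate 2, 138 and 49 without tumor LEC replicate 1, and 96 and 19 without tumor LEC replicate 3. The FRC counts became 343 and 139 without tumor FRC replicate 2. Counts of genes called in both cell types or within gene lists were not recomputed in this way. A gene that passed in 1 cell type alone is not shown to differ between them. Of the 1412 genes called in either, 1334 did not pass the test of the difference, and 85 rose in both. At an unadjusted p under 0.05, 1459 differences passed (11.1% of all genes). The test was limma's moderated test of the difference of differences with Benjamini-Hochberg adjustment over all genes. The counts of 54 and 26 became 13 and 7 without tumor LEC replicates 1 and 2, 32 and 13 without naive FRC replicate 1, 32 and 12 without naive FRC replicate 2, 33 and 11 without tumor FRC replicate 1, 30 and 9 without tumor FRC replicate 2, 113 and 81 without tumor FRC replicate 3, 31 and 10 without naive LEC replicate 2, and 78 and 44 without naive FRC replicate 3. The lower count also became 12 without naive LEC replicate 1 or 3, 13 without tumor LEC replicate 2 and 46 without tumor LEC replicate 3.

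**Figure D2:**
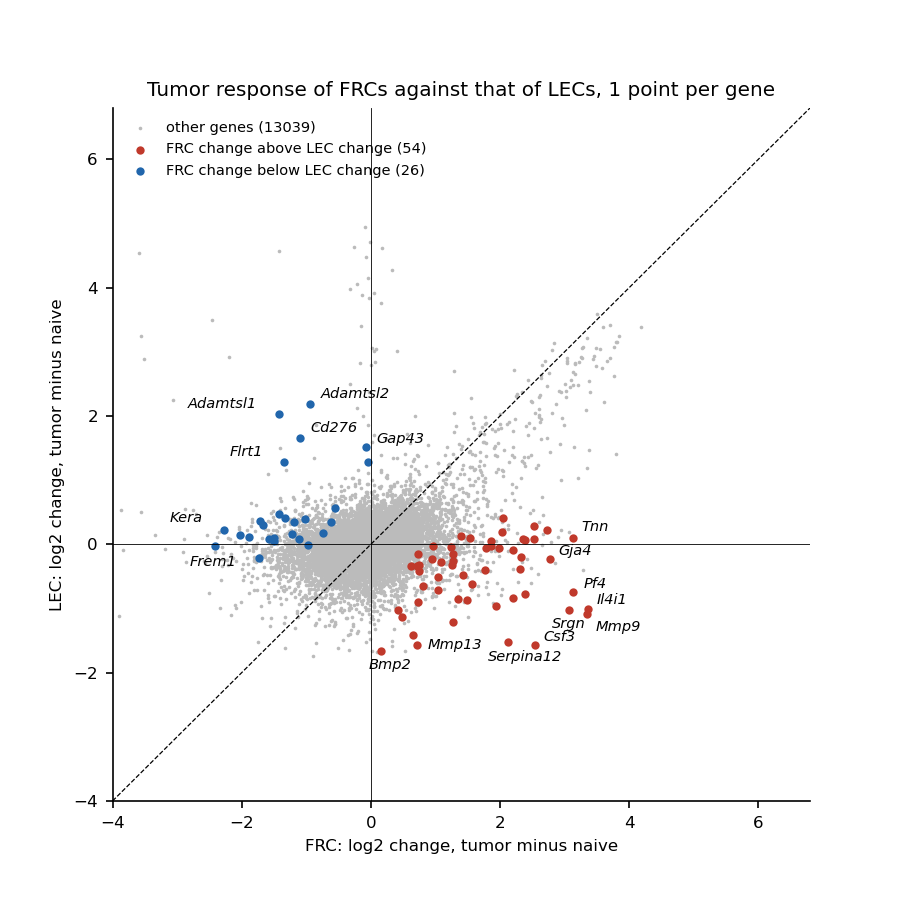
Log2 change between tumor and naive mice in FRCs (x axis) against that in LECs (y axis), 1 point per gene, with the dashed line at equal changes. The 54 red genes lie below the line and the 26 blue genes above it, and the gray genes at the upper right had large changes in both cell types.

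The highest difference was that of *Mmp9*, the gene of gelatinase B, which degrades collagen-IV. Over all genes the differences ran from -8.13 to 4.44, and the lowest that was called was -3.45. Its log2 signals were 7.21, 7.45 and 9.04 in naive FRCs and 11.42, 11.72 and 10.61 in tumor FRCs, then 11.85, 12.58 and 12.47 in naive LECs and 11.31, 10.82 and 11.50 in tumor LECs. Every tumor FRC value exceeded every naive FRC value, every tumor LEC value lay under every naive LEC value, and the tumor groups of both cell types overlapped. *Mmp9* rose 10.2-fold in FRCs, and its log2 change of -1.09 in LECs did not pass. The difference was 4.44 (95% interval 2.42 to 6.46, limma adjusted p = 0.040). In a two-sided exact permutation of the tumor labels within each cell type its p was 0.005, the smallest that 400 arrangements allow. That p takes no account of the choice of *Mmp9* as the highest difference and adds no support. Genes that were not called, such as *Lif*, *Sphk2* and *Cd40*, had the same permutation p. The call of *Mmp9* held in only 15 of 28 alternative analyses, with adjusted p up to 0.13, and it was lost without tumor LEC replicates 1 and 2 (difference 4.15, adjusted p = 0.39).

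*Il4i1* encodes a secreted oxidase that breaks down aromatic amino acids. Signals of 9.96, 9.97 and 10.86 in naive FRCs became 13.74, 14.03 and 13.09 in tumor FRCs, while naive LECs had 13.51, 13.98 and 14.29 and tumor LECs 12.98, 12.55 and 13.24. The groups did not overlap in either cell type and moved in opposite directions, of which the 10.3-fold rise in FRCs passed. The difference was 4.36 (95% interval 2.94 to 5.78, adjusted p = 0.0029), and it missed the threshold without tumor LEC replicates 1 and 2 (4.05, adjusted p = 0.087).

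*Csf3*, the gene of the granulocyte growth factor G-CSF, was not above background in any naive FRC replicate (5.19, 5.05 and 5.31) and reached 8.08, 7.84 and 7.26 in tumor FRCs, at least a 4.33-fold rise. Naive LECs had 7.15, 8.0 and 8.46 and tumor LECs 6.24, 6.79 and 5.88, again without overlap. *Csf3* thus had its highest signals in naive LECs and tumor FRCs. The difference was 4.11 (95% interval 2.60 to 5.63, adjusted p = 0.0066). It was 2.02 with the mean of all probes, and it missed the threshold without tumor LEC replicates 1 and 2 (4.54, adjusted p = 0.063).

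*Srgn*, which encodes the granule proteoglycan serglycin, and *Pf4*, which encodes a chemokine of platelets and macrophages, also had their lowest signals in naive FRCs. *Srgn* was 7.77, 7.57 and 8.41 in naive and 11.14, 11.37 and 10.43 in tumor FRCs, and 11.45, 11.17 and 11.64 in naive and 10.84, 9.57 and 10.80 in tumor LECs. *Pf4* was 5.97, 6.07 and 6.75 in naive and 9.52, 9.27 and 9.41 in tumor FRCs, and 8.84, 9.64 and 9.58 in naive and 8.25, 8.58 and 9.02 in tumor LECs. Both rose in FRCs, 8.36-fold and 8.8-fold, and the LEC changes of -1.02 and -0.74 did not pass. The differences were 4.08 for *Srgn* (standard error 0.69, adjusted p = 0.0053) and 3.88 for *Pf4* (standard error 0.67, adjusted p = 0.0061). The call of *Srgn* was lost with the probe of highest variance, and that of *Pf4* in a fit blocked by replicate number. Neither passed without tumor LEC replicates 1 and 2 (adjusted p = 0.11 and 0.17). In the same FRCs 2 of 13 myeloid markers rose, *Cd14* and *Csf1r* (6.40% of all genes rose), and 3 of the 13 were not above background in tumor FRCs. All 13 had an FRC change above 0 (6231 of all 13119 genes), with a median of 0.61 against -0.14 in LECs. Their median difference was 0.46, with 11 of 13 above 0 and 0 called (2 at an unadjusted p under 0.05). The median level of that list was 5.46 to 5.69 in naive FRCs and 5.71 to 6.62 in tumor FRCs. *Ppbp*, another platelet chemokine, stayed between 4.77 and 5.63 in all 12 replicates, and was looked up after the values of *Pf4* were seen. Whether myeloid cells or platelets took part in the signals of *Srgn* and *Pf4* was not tested.

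*Madcam1* encodes the addressin that binds the integrin α4β7. Its signals were 6.45, 7.10 and 8.21 in naive FRCs and 9.50, 9.87 and 8.98 in tumor FRCs, against 11.24, 11.20 and 11.27 in naive LECs and 9.94, 10.24 and 11.002 in tumor LECs. All tumor FRC values lay above all naive FRC values, and still below all naive LEC values. The 4.59-fold rise in FRCs passed, the LEC change of -0.84 did not, and the difference was 3.04 (standard error 0.62, adjusted p = 0.024). It held in 17 of 28 alternative analyses, with adjusted p up to 0.096, and its adjusted p was 0.42 without tumor LEC replicates 1 and 2. *Gja4*, the gene of a gap junction connexin of vessels, rose from 9.19, 9.03 and 10.10 to 12.29, 12.35 and 12.03 in FRCs. In LECs it was 11.84, 11.9996 and 12.11 in naive and 11.47, 11.80 and 11.9985 in tumor replicates, which overlap. Its difference of 3.00 (95% interval 2.20 to 3.81, adjusted p = 0.00043) passed in all 29 alternative analyses.

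*Brinp1*, a gene of the nervous system induced by BMP and retinoic acid, rose 3.83-fold in FRCs, and its difference was 2.90 (adjusted p = 0.0061; 0.21 without tumor LEC replicates 1 and 2). *Serpina12*, which encodes the serpin vaspin, was the only gene with a higher difference that passed in both directions. Signals of 5.54, 5.39 and 6.15 in naive FRCs became 8.15, 8.49 and 6.83, while those of LECs fell from 8.51, 9.17 and 9.43 to 7.67, 7.06 and 7.80. Neither pair of groups overlapped. The rise was 4.38-fold in FRCs, the fall was 2.88-fold in LECs, and the difference was 3.66 (95% interval 2.62 to 4.70, adjusted p = 0.00080), which passed in every alternative tried.

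Markers of the lymphatic lineage were read in the same FRCs. Whether LECs among the sorted FRCs took part in the rises above was not tested. Of 12 lymphatic endothelial markers, 1 (*Sox18*) rose in FRCs, where 6.40% of all genes did. A change above 0 was found in 8 of the 12 there (6231 of all 13119 genes). The list had a median change of 0.05 in FRCs and 0.07 in LECs. The median level of 24 lymphatic identity genes was 7.71, 6.84 and 8.39 in naive and 8.57, 8.12 and 8.73 in tumor FRCs. Their median change in FRCs was -0.06, with 11 above 0 and 13 below. *Prox1* had a mean change of 0.01 in FRCs, from 5.77, 5.47 and 7.53 to 6.77, 6.22 and 5.83. *Pecam1*, which encodes CD31, was 8.76, 5.81 and 7.35 in naive and 7.66, 6.50 and 7.90 in tumor FRCs, and *Flt4*, a receptor of lymphatic growth, stayed between 5.30 and 5.78. *Lyve1* had a change of 1.97 in FRCs (adjusted p = 0.21). Of 16 blood endothelial markers, *Madcam1* and *Sele* rose in FRCs (6.40% of all genes rose), and the median over the list was -0.31. Naive FRC replicate 3, which had the highest *Prox1*, also had the highest naive FRC signal of *Mmp9*, *Il4i1*, *Srgn*, *Pf4*, *Madcam1*, *Gja4*, *Brinp1* and *Serpina12*. Its part in their levels was not tested beyond leaving it out.

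**Figure D3:**
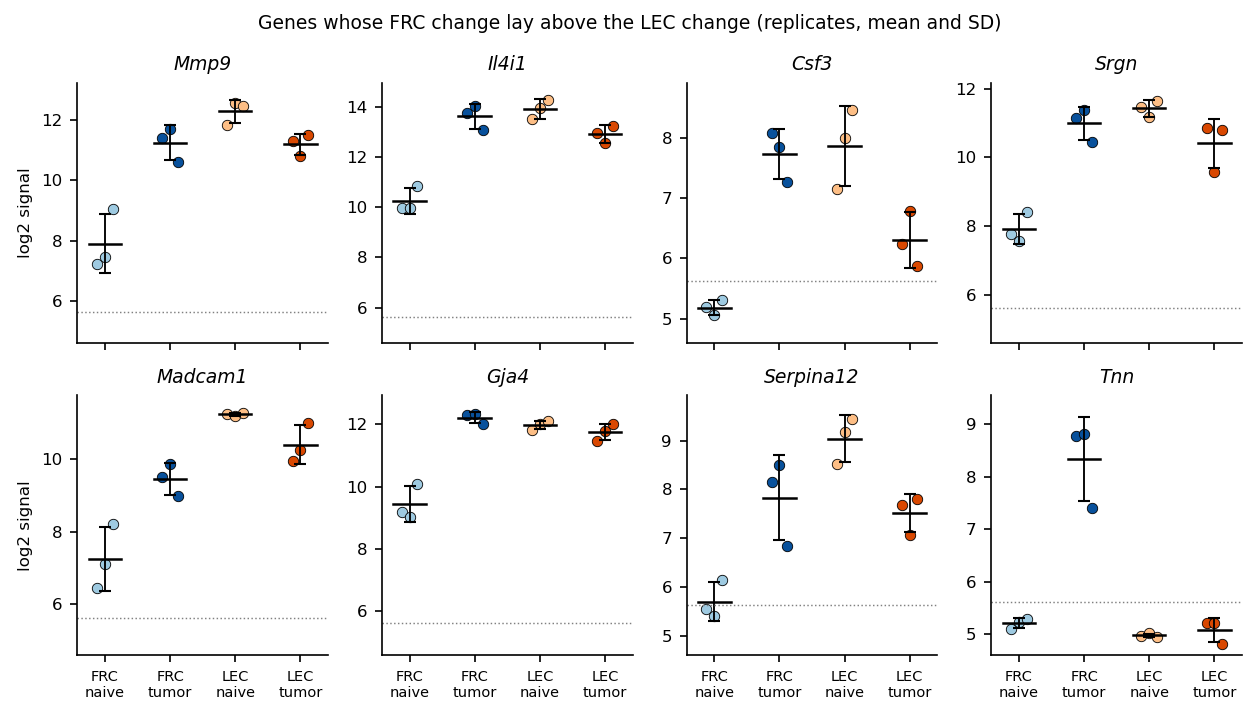
Log2 signal of 8 genes whose FRC change lay above the LEC change, 1 point per replicate (n = 3 per group) with the mean and SD; the dotted line is the background level of 5.62. In 7 of the 8 the tumor FRC points move toward or past the LEC points, and *Tnn* is above background in tumor FRCs only, at 7.41 to 8.82.

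Promoter sequence was available from RefSeq (GRCm38.p6, 250 bases before to 50 after the start of a gene) for 33 of the 50 named genes with a higher difference and 14 of the 24 with a lower one. The kappaB consensus, the binding motif of NF-κB, was searched on both strands because FRCs and LECs both answer NF-κB signals. It occurred in 4 of the 33 (12.1%), in 1 of the 14 (7.14%, *Adamtsl2*) and in 4.35% of all 27025 promoters. TGANTCA, the AP-1 motif, occurred in 2 of the 33 (6.06%, *Mmp13* and *Serpina1c*), in 0 of the 14 and in 7.93% of all. TTCNNNGAA, the STAT motif, occurred in 2 of the 33 (6.06%, *Serpina11* and *Sod2*) and in 8.47% of all. It occurred in 3 of the 14 (21.4%, *Mir99ahg*, *Rian* and *Slc46a3*). These counts are small and describe letters only. The 4 promoters of genes with a higher difference and a kappaB match are shown 5′ to 3′ with the match in capitals. That of *Adamtsl2* and those with other motifs alone are not shown.
Madcam1, chr10:79664309-79664608, plus strand: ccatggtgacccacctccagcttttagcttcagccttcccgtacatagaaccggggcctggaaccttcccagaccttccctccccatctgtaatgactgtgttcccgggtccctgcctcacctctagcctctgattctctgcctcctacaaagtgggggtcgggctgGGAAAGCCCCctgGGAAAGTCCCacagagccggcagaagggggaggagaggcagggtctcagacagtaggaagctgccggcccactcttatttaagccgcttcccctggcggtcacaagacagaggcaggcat
Akr1c12, chr13:4279350-4279649, minus strand: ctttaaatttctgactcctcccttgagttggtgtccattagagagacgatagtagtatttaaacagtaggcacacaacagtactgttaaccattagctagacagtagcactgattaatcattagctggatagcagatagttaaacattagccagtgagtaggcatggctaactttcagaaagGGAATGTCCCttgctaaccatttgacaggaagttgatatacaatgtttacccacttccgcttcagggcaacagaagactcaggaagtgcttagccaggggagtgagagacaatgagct
Sod2, chr17:13007589-13007888, plus strand: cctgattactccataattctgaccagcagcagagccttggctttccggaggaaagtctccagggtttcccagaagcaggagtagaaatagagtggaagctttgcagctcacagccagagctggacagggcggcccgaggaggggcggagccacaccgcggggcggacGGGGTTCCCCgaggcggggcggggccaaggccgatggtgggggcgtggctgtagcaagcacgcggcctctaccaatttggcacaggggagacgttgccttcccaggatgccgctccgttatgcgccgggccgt
Tnn, chr1:160153526-160153825, minus strand: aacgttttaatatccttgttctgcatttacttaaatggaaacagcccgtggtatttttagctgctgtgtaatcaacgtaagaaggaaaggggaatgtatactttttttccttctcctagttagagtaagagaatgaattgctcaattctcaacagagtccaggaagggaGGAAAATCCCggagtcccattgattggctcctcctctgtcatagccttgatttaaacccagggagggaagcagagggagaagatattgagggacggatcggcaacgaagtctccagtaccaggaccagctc
*Madcam1* holds 2 matches, which begin 83 and 70 bases before the start and are separated by 3 bases. The other promoters hold 1 match each, which begins 68 bases before the start in *Akr1c12*, 83 in *Sod2* and 81 in *Tnn*.

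*Akr1c12*, which encodes an aldo-keto reductase, started from equal levels in both cell types. Its signals were 8.21, 8.06 and 8.37 in naive FRCs and 8.10, 8.0 and 8.19 in naive LECs. Tumor FRCs reached 10.71, 10.98 and 10.10, and tumor LECs had 8.12, 6.73 and 7.12. The cell types thus parted in the tumor group, by a difference of 3.15 (95% interval 2.19 to 4.12, adjusted p = 0.0016) that passed in every alternative tried. *Sod2*, the mitochondrial superoxide dismutase, went from 13.11, 12.99 and 13.18 to 13.75, 13.91 and 13.49 in FRCs, and from 13.28, 13.34 and 13.27 to 13.26, 12.78 and 12.82 in LECs. Its difference was small, at 0.96 (standard error 0.21, adjusted p = 0.041), and passed in 15 of 29 alternative analyses.

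A group of 15 genes with a higher difference was above background in FRCs only, and here LECs give no signal to compare. *Tnn* encodes tenascin-N, a matrix glycoprotein of stroma around tumors and in bone. It was 5.10, 5.22 and 5.29 in naive FRCs, all below background, and 8.78, 8.82 and 7.41 in tumor FRCs, at least a 6.58-fold rise, while the 6 LEC replicates lay between 4.81 and 5.22. *Serpina11*, a serpin, rose from 5.07, 5.08 and 5.14 to 7.76, 7.50 and 6.95 in FRCs, at least 3.45-fold, with 1 of 6 LEC replicates above background. Both genes thus went from below to above the background level in FRCs. *Dsc3*, which encodes the desmosomal cadherin desmocollin-3, rose 5.03-fold (6.02, 6.27 and 6.49 to 8.59, 8.88 and 8.29), and *Steap1*, a membrane protein of the metalloreductase family, 5.77-fold (5.67, 6.09 and 6.20 to 8.83, 8.86 and 7.86). The differences were 3.03 for *Tnn* (adjusted p = 0.00023), 2.69 for *Serpina11* (0.00016), 2.53 for *Dsc3* (0.00023) and 2.45 for *Steap1* (0.0041), of which that of *Steap1* missed the threshold without tumor LEC replicates 1 and 2 (adjusted p = 0.078).

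*Serpina1c*, *Serpina11* and *Serpina12* lie near each other on chromosome 12 (GRCm38, from 103894926 to 104044443) and all rose in FRCs. The gaps between them are 75.3 and 38.8 kb, and other genes in these gaps were not examined. *Serpina1c* was 5.11, 5.12 and 5.54 in naive and 7.36, 7.69 and 6.69 in tumor FRCs, at least a 3.09-fold rise, with LEC values between 5.12 and 5.49. Its difference was 2.05 (adjusted p = 0.0020), although *Serpina1c* has near-identical copies that its probe may also bind. The 3 genes differed in LECs, since only *Serpina12* was above background in all LEC replicates.

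Further genes that rose in FRCs and were at background in LECs act in signaling and transport. *S1pr3*, a receptor for sphingosine-1-phosphate, was 6.02, 5.95 and 6.84 in naive and 7.93, 8.34 and 8.10 in tumor FRCs, and 4.86 to 5.17 in LECs. The 3.62-fold rise gave a difference of 1.89 (adjusted p = 0.0061), and none of the other 11 genes of the sphingosine-1-phosphate list tested passed. *Slc1a2*, a glutamate transporter, rose 4.61-fold (5.18, 5.6 and 5.93 to 7.70, 8.19 and 7.44) with LEC values of 4.82 to 5.13. *Hhip*, an inhibitor of hedgehog ligands, rose 4.08-fold (6.54, 6.47 and 6.58 to 8.68, 8.87 and 8.12) with LEC values of 5.04 to 5.50. The differences were 2.30 for *Slc1a2* (adjusted p = 0.00026) and 1.84 for *Hhip* (0.017). Those of *S1pr3* and *Hhip* did not pass without tumor LEC replicates 1 and 2 (adjusted p = 0.12 and 0.11). Where LECs are at background, a small LEC change could not have been seen.

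*Itga1* and *Sting1* were measured well in both cell types, and by themselves only their FRC changes passed. *Itga1*, the α1 chain of a collagen-binding integrin, was 8.71, 8.82 and 9.0 in naive and 10.88, 10.86 and 10.12 in tumor FRCs, with LEC values of 9.94 to 10.60. *Sting1*, an adaptor in the sensing of cytosolic DNA, was 8.88, 8.98 and 8.98 in naive and 10.80, 11.02 and 10.31 in tumor FRCs, with LEC values of 11.19 to 11.98. Both rose in FRCs, 3.43-fold and 3.4-fold, and neither LEC pair of groups was separated. The differences were 1.83 for *Itga1* (adjusted p = 0.021) and 2.16 for *Sting1* (0.012). They passed in 19 and 26 of 29 alternative analyses, and neither did without tumor LEC replicates 1 and 2 (adjusted p = 0.29 and 0.087). Among 18 integrin genes tested, *Itga1* alone differed.

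In a smaller set the fall in LECs passed by itself and the FRC change did not. *Bmp2*, a ligand of the BMP pathway, was 7.30, 7.03 and 7.10 in naive LECs and 5.39, 5.30 and 5.76 in tumor LECs, and all 6 FRC replicates were below background, between 4.73 and 5.36. It fell 3.15-fold in LECs (log2 change -1.66, adjusted p = 0.00018), and the difference was 1.82 (standard error 0.26, adjusted p = 0.0014). *Chrnb4*, a subunit of nicotinic acetylcholine receptors, was 7.39, 7.01 and 7.01 in naive and 6.12, 5.87 and 6.33 in tumor LECs, and only 1 FRC replicate reached the background level. It fell 2.04-fold in LECs, with a difference of 1.45 (adjusted p = 0.0030). *Mmp13*, a collagenase that cuts fibrillar collagen, fell from 10.85, 10.64 and 11.45 to 9.21, 9.24 and 9.78 in LECs, 2.96-fold, and was 5.88 to 6.30 in naive and 6.42 to 7.30 in tumor FRCs. Its difference was 2.28 (standard error 0.41, adjusted p = 0.0092). Thus *Mmp9* and *Mmp13* were the 2 of 17 metallopeptidase and TIMP genes that differed. By themselves, only the FRC rise of *Mmp9* and only the LEC fall of *Mmp13* passed. *Coch* and *Spock3*, both genes of secreted matrix proteins, also fell in LECs, 2.67-fold and 2.19-fold (differences 2.06 and 1.61, adjusted p = 0.047 and 0.041). Changes in FRCs also enter these 5 differences, at 0.16 for *Bmp2*, 0.43 for *Chrnb4*, 0.71 for *Mmp13*, 0.65 for *Coch* and 0.49 for *Spock3*. None of these 5 differences passed without tumor LEC replicates 1 and 2, where tumor LECs are represented by 1 replicate: the values were 1.54 for *Bmp2* (adjusted p = 0.077), 1.23 for *Chrnb4* (0.11), 1.91 for *Mmp13* (0.27), 1.32 for *Coch* (0.49) and 1.17 for *Spock3* (0.44). *Mmp13* differed by 1.07 with the mean of all probes, and *Coch* and *Spock3* passed in 14 and 15 of 29 alternative analyses.

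In the opposite sense, 2 ADAMTS-like genes were lower in tumor FRCs and rose in LECs. ADAMTS-like proteins are secreted into the matrix and resemble ADAMTS peptidases without the catalytic domain. *Adamtsl1* had signals of 10.31, 10.03 and 9.64 in naive and 8.13, 8.68 and 8.93 in tumor FRCs, and of 6.62, 5.97 and 6.72 in naive and 8.78, 8.74 and 7.89 in tumor LECs. *Adamtsl2* had 6.76, 7.44 and 6.67 in naive and 6.19, 5.76 and 6.10 in tumor FRCs, and 5.91, 5.72 and 6.01 in naive and 7.17, 8.48 and 8.55 in tumor LECs. Neither gene had overlapping groups in either cell type. *Adamtsl1* fell 2.67-fold in FRCs and rose 4.09-fold in LECs, which brought the tumor groups of the cell types together. *Adamtsl2* rose 4.56-fold in LECs, and its log2 change of -0.94 in FRCs missed the threshold (adjusted p = 0.056). The differences were -3.45 for *Adamtsl1* (95% interval -4.58 to -2.31, adjusted p = 0.0029) and -3.13 for *Adamtsl2* (95% interval -4.04 to -2.22, adjusted p = 0.00092). Without tumor LEC replicates 1 and 2, *Adamtsl1* missed the threshold (-2.87, adjusted p = 0.13) and *Adamtsl2* passed (-3.61, adjusted p = 0.0015).

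*Flrt1*, a membrane protein of cell adhesion and FGF signaling, moved the same way. Its signals were 8.33, 7.94 and 8.4 in naive and 7.17, 6.54 and 6.90 in tumor FRCs, and 6.55, 6.43 and 6.60 in naive and 7.53, 8.06 and 7.83 in tumor LECs. A fall of 2.55-fold in FRCs and a rise of 2.43-fold in LECs crossed over, so that *Flrt1* was higher in FRCs of naive mice and higher in LECs of tumor mice. The difference was -2.63 (95% interval -3.24 to -2.02, adjusted p = 0.00016), the smallest adjusted p of all genes together with *Serpina11*. A predicted gene that overlaps *Flrt1* on chromosome 19 was called in the same direction, and array probes do not settle which of the 2 transcripts is bound. *Cd276*, the checkpoint ligand B7-H3, was 10.48, 10.92 and 11.02 in naive and 9.39, 9.53 and 10.20 in tumor FRCs, and 7.65, 8.07 and 7.67 in naive and 8.35, 10.45 and 9.55 in tumor LECs. Its difference of -2.75 (standard error 0.57, adjusted p = 0.027) passed although neither change did (adjusted p = 0.086 in FRCs and 0.056 in LECs), and it held in 19 of 28 alternative analyses. *Cd276* was the 1 of 14 checkpoint and costimulatory genes that differed.

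*Gap43*, a membrane protein of growing axons, and *Myo18b*, an unconventional myosin, differed by a rise in LECs alone. *Gap43* was below background in naive LECs (4.90, 5.08 and 5.41) and was 6.39, 6.82 and 6.75 in tumor LECs, at least a 2.05-fold rise, with FRC values of 5.63 to 6.30 in both states. *Myo18b* was 5.55, 5.65 and 5.99 in naive and 6.76, 7.43 and 6.83 in tumor LECs and below background in all FRC replicates. In both genes the FRC groups overlapped and the LEC groups did not. The differences were -1.59 for *Gap43* (adjusted p = 0.0041) and -1.32 for *Myo18b* (0.017), which passed in 20 of 29 alternative analyses and had an adjusted p of 0.17 without tumor LEC replicates 1 and 2.

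**Figure D4:**
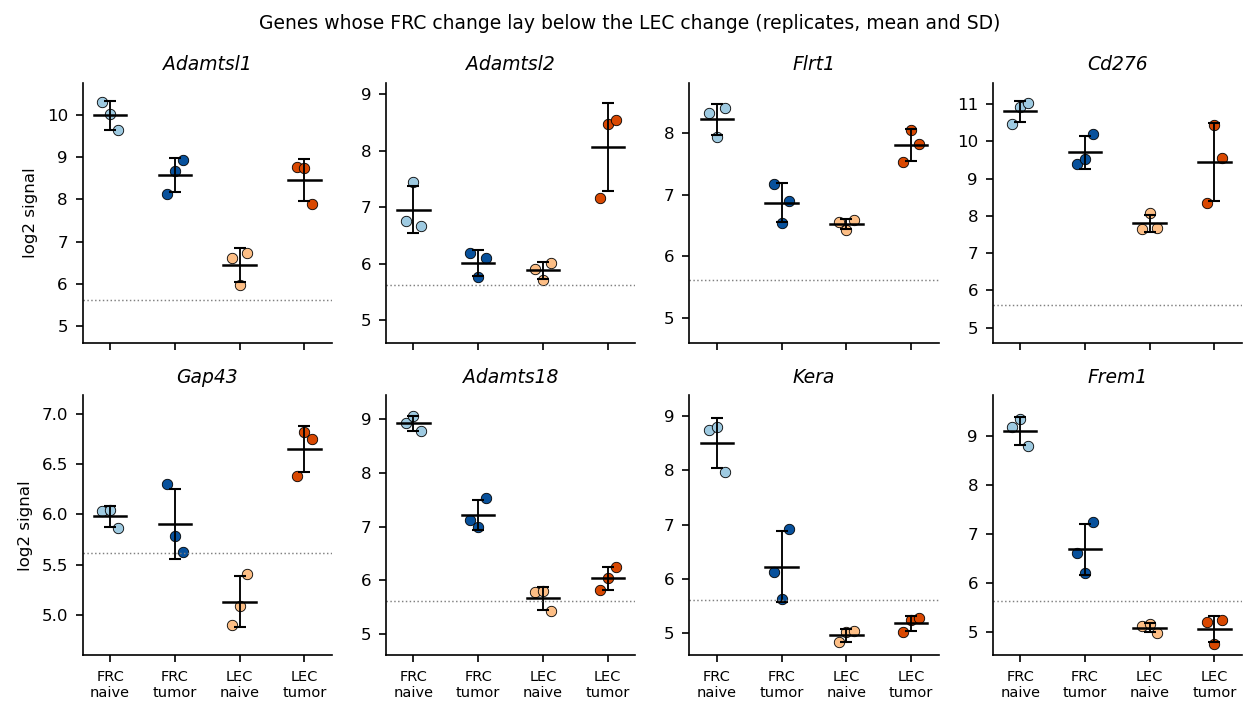
Log2 signal of 8 genes whose FRC change lay below the LEC change, 1 point per replicate (n = 3 per group) with the mean and SD; the dotted line is the background level of 5.62. *Adamtsl1*, *Adamtsl2*, *Flrt1* and *Cd276* move in opposite directions in the 2 cell types, *Gap43* moves in LECs, and *Adamts18*, *Kera* and *Frem1* move in FRCs.

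Most genes with a lower difference, 22 of the 26, fell in FRCs. *Frem1*, a basement membrane protein, was 9.19, 9.34 and 8.78 in naive and 6.61, 6.20 and 7.24 in tumor FRCs, a 5.35-fold fall. *Kera*, the gene of the small leucine-rich proteoglycan keratocan, was 8.75, 8.80 and 7.97 in naive and 6.13, 5.62 and 6.93 in tumor FRCs, a 4.86-fold fall. LECs were below background for both, between 4.75 and 5.27. *Adamts18*, a secreted matrix peptidase, fell 3.27-fold, from 8.93, 9.07 and 8.79 to 7.13, 6.99 and 7.54, and had LEC values of 5.42 to 6.25. The naive and tumor FRC groups of these genes lay apart by at least 1 log2 unit. The differences were -2.40 for *Frem1* (adjusted p = 0.00023), -2.50 for *Kera* (0.0016) and -2.08 for *Adamts18* (0.0016). *Frem1* passed in all 29 alternative analyses, *Adamts18* in 28 and *Kera* in 26. *Postn*, which encodes periostin, lay just outside the threshold (difference -1.37, adjusted p = 0.050).

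Regulators of signaling and transport fell in FRCs as well. The agouti gene *a*, an antagonist of melanocortin receptors, fell 3.68-fold (8.89, 9.13 and 7.37 to 6.20, 6.8 and 6.75), and *Ppp2r2b*, a regulatory subunit of the phosphatase PP2A, 2.97-fold (8.46, 8.56 and 7.89 to 6.34, 6.4 and 7.45), with LECs below background for both. *Rerg*, a small GTPase of the Ras family, fell 2.69-fold, and *Spire2*, an actin nucleator, 2.51-fold. *Pcdh12*, an endothelial protocadherin, fell 3.17-fold in FRCs (9.42, 9.21 and 9.36 to 8.22, 7.13 and 7.65) while LECs, which carry more of it, had 11.91 to 12.38 in naive and 12.28 to 12.67 in tumor replicates. *Slc46a3*, a lysosomal transporter, fell 2.82-fold in FRCs and had LEC values of 10.00 to 10.58 in both states. *Pcdh12* and *Slc46a3* were thus well above background in both cell types and separated in FRCs alone. Their differences were -1.97 (adjusted p = 0.021) and -1.59 (0.041). *Pcdh12* passed in 18 of 29 alternative analyses, *Slc46a3* in 17, *a* in 13, *Ppp2r2b* in 14, *Rerg* in 15, *Spire2* in 20 and *Dusp6* in 16, and none of the 7 passed without tumor LEC replicates 1 and 2 (adjusted p = 0.19 to 0.42). *Dusp6*, a phosphatase that is induced by and switches off ERK signaling, was 12.94 to 13.38 in naive and 12.42 to 12.55 in tumor FRCs, and 13.21 to 13.62 in naive and 13.71 to 13.80 in tumor LECs. The fall of 1.54-fold in FRCs passed, the LEC change of 0.36 did not, and the difference was -0.98 (adjusted p = 0.025). None of the other 27 immediate early genes tested differed.

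Genes of 2 noncoding RNAs were among those that fell in FRCs and were at background in LECs. *Rian*, of the imprinted domain that also holds *Rtl1*, fell 3.34-fold, from 7.50, 7.30 and 8.57 to 5.88, 6.15 and 6.12, with a difference of -1.53 (adjusted p = 0.041). A predicted gene beside it on chromosome 12 was called in the same direction, and *Rtl1* lay just outside the threshold (difference -0.95, adjusted p = 0.050). *Mir99ahg*, the host transcript of microRNA genes, fell 1.96-fold, with a difference of -0.97 (adjusted p = 0.017). *Rian* passed in 13 and *Mir99ahg* in 20 of 29 alternative analyses, and neither did without tumor LEC replicates 1 and 2 (adjusted p = 0.37 and 0.22).

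The remaining genes with a higher difference are given by their ranges. *Fgl1*, *P2rx5*, *Jpt2*, *Lxn* and *Psmd10* rose in FRCs by log2 changes of 2.73, 2.52, 2.04, 1.86 and 1.27 and had LEC changes between -0.16 and 0.41. *Ppp1r1a*, *Sorcs1*, *Sorcs2*, *Ache*, *Ufsp1*, *Lhpp*, *Emd*, *Ogfrl1*, *Med11*, *Ubxn8*, *Chmp6* and *Riok3* rose by 0.71 to 1.56 in FRCs, with LEC changes of -1.20 to -0.05. *Ache*, which encodes acetylcholinesterase, and *Ufsp1* are neighbors on chromosome 5 and had differences of 2.20 and 1.76. *Htr1f*, *Pyy*, *Dcaf12l2*, *Tcerg1l* and *Igfbpl1* were below background in all naive FRC replicates and never above background in LECs. *Cacng1* rose in FRCs from below background, and *Tectb* was the gene with a higher difference that passed in neither cell type. Another 4 were predicted genes. Of those with a lower difference, *Zfp608*, *Rnf182*, *Dipk1c*, *Slc27a6*, *Scrn1* and *Ccdc120* fell in FRCs by 0.74 to 1.51 on the log2 scale, with LEC changes of 0.05 to 0.39, and 2 were predicted genes. The calls in this paragraph varied in stability. *Jpt2* and *Ppp1r1a* passed in 28 of 29 alternative analyses, *Fgl1*, *Sorcs2*, *Zfp608*, *Dipk1c* and *Slc27a6* in 13, *Med11* in 11, and *Ubxn8* and *Scrn1* in 10. The difference of *Igfbpl1*, near background in tumor FRCs, was as low as 0.04.

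Gene lists of known pathways were described by their counts and medians, to be read against all genes tested. Of these, 6.40% rose and 4.12% fell in FRCs, 0.785% rose and 0.137% fell in LECs, and 11.1% had a difference at an unadjusted p under 0.05. Housekeeping genes (15 tested) had a median change of 0.35 in FRCs, where 3 rose, and of 0.07 in LECs. Their median difference was 0.23, with 14 of 15 above 0 and none called. List medians of similar size are thus not shown to be particular to a pathway. Genes of mitosis rose in both cell types, 28 of 31 tested in FRCs (median log2 change 2.96) and 19 in LECs (2.37), and none differed (median difference 0.63 against -0.02 over all genes; 2 at an unadjusted p under 0.05). *Top2a*, the topoisomerase that resolves replicated chromosomes, was 6.35, 6.85 and 7.6 in naive and 10.99, 10.90 and 10.34 in tumor FRCs, and 6.70, 7.54 and 7.91 in naive and 9.85, 11.25 and 10.53 in tumor LECs. It rose in both with no overlap, and its difference of 0.66 had a 95% interval of -1.01 to 2.33. For *Cdk1*, the kinase that drives entry into mitosis, the interval was -1.25 to 1.09, so a difference of about 1 log2 unit in either direction stays within it. Of 44 DNA replication genes, 34 rose in FRCs and 12 in LECs, with medians of 1.52 and 1.11, and none differed (median difference 0.43; 7 at an unadjusted p under 0.05). Likewise 16 of 41 ribosome biogenesis genes rose in FRCs (median 0.69) and none in LECs (median 0.19), and none of the differences passed (median 0.44; 11 at an unadjusted p under 0.05). Of 28 sterol and fatty acid genes, 10 rose in FRCs (median 0.38), none passed in LECs (median 0.29), and none differed (4 at an unadjusted p under 0.05).

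Lists of inflammation and antigen display had medians on either side of 0 in the 2 cell types. Inflammatory chemokines and cytokines (33 tested) had a median change of 0.55 in FRCs and -0.22 in LECs. *Csf2*, *Csf3*, *Cxcl16*, *Saa1* and *Saa3* rose in FRCs, and none passed in LECs. *Csf3* alone had a called difference, while 25 of the 33 differences lay above 0 (median 0.91) and 9 had an unadjusted p under 0.05. Of 24 genes of NF-κB and lymphotoxin receptor signaling, *Birc2*, *Nfkb2*, *Relb*, *Tnfrsf1b* and *Traf1* rose in FRCs, with medians of 0.39 and -0.21, and none differed (median difference 0.65; 10 at an unadjusted p under 0.05). *Nfkb2*, which encodes the precursor of the p52 subunit, had signals of 8.10, 8.11 and 9.10 in naive and 9.99, 9.96 and 9.98 in tumor FRCs, and of 9.36 to 9.92 in all LEC replicates (difference 1.39, 95% interval 0.31 to 2.46, adjusted p = 0.27). The homeostatic chemokine list (17 tested) had *Madcam1* as its 1 called gene. *Bst1* and *Tnfsf11*, the latter the gene of RANKL, rose in FRCs too, but their differences of 2.85 and 2.32 missed the threshold (adjusted p = 0.11 and 0.42). *Ccl19* (difference 0.74, adjusted p = 0.90) and *Ccl21a* (-0.44, adjusted p = 0.95) had wide intervals of -1.80 to 3.27 and -3.18 to 2.31. MHC class II genes (11 tested) had medians of 0.48 and -0.29 and MHC class I genes (15 tested) 0.23 and -0.28, with none called in either cell type or in the difference (0 and 4 at an unadjusted p under 0.05).

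Matrix lists went the other way in FRCs. Of 37 collagen chains, 2 rose and 8 fell in FRCs (median -0.54), while *Col4a1* and *Col4a2*, the common chains of collagen-IV, rose in LECs (median of the list -0.08). None of the 37 differed over all genes tested (median difference -0.43; 11 at an unadjusted p under 0.05). The 14 laminins and basement membrane proteins had a median difference of -0.74 and the 38 ECM glycoproteins and proteoglycans one of -0.36, with 0 called in each (7 and 4 at an unadjusted p under 0.05, the second near the 11.1% of all genes). *Bmp2* was the 1 of 32 TGF-β and BMP genes that differed. *Tgfb2*, the next by adjusted p, had a difference of -1.70 (adjusted p = 0.16). Genes of the Wnt pathway (35 tested), Notch pathway (20), interferon response (40), complement (20), oxidative phosphorylation (44) and lymphatic identity (24) had no called difference, with medians between -0.20 and 0.21.

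**Figure D5:**
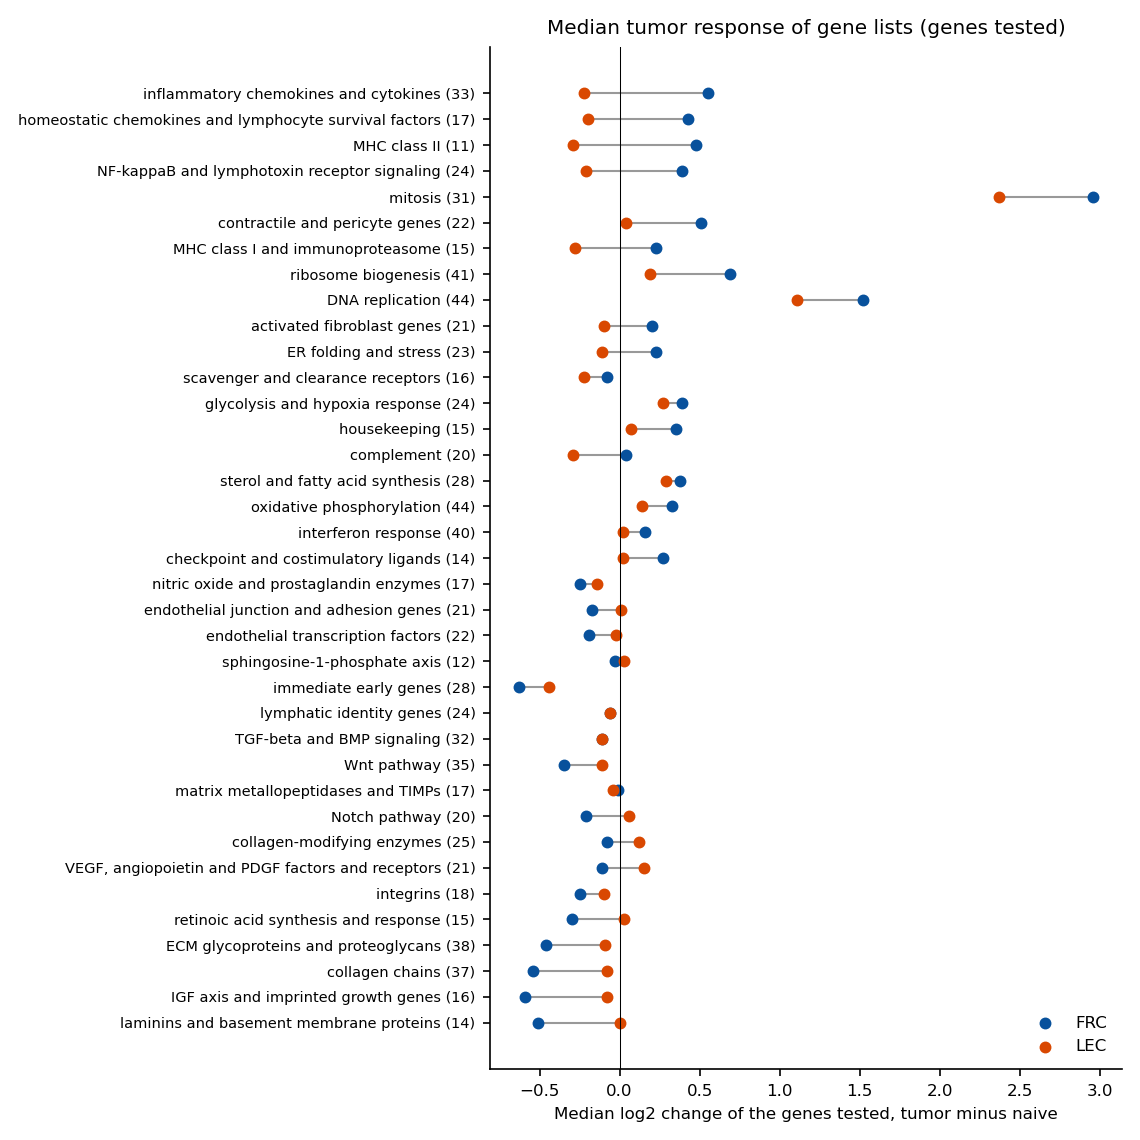
Median log2 change between tumor and naive mice in FRCs (blue) and LECs (orange) for 37 gene lists, with the number of genes tested in parentheses and the lists ordered by their median difference. Mitosis and DNA replication stand far to the right in both cell types, and inflammatory and antigen display lists have the FRC median above 0 and the LEC median below it.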

How the data were processed

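FRCs and LECs from naive and tumor mice were read on Illumina bead arrays, 2 strips per replicate. The authors deposited log2 signals of 45281 probes, which had already been brought to similar distributions, by steps not given in the sources used here, and scanner files with the intensity of each bead, which the authors' scanner had background-subtracted. Of the deposited log2 values 122 were empty. The 48 strips were quantile normalized and the 2 strips of a replicate averaged. A probe with 1 gene symbol was kept where a group mean exceeded 5.616 (mode 5.04 plus 3 robust SDs of 0.192), and the brightest of 21306 kept probes stood for each of 13119 genes (5377 had several). limma 3.58.1 in R 4.3.3 fitted 8 groups of 24 replicates (16 residual degrees of freedom), tested (FRC tumor minus FRC naive) minus (LEC tumor minus LEC naive), and applied the Benjamini-Hochberg adjustment with a threshold of 0.05. The number of arrays limits the precision.

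Named genes were, among called genes, the 10 largest and 10 lowest differences measured in both cell types, the 4 largest and 4 lowest measured in 1 cell type alone, up to 4 members of each gene list with a called gene, all genes called in opposite directions, and the defining markers. Other called genes with an established name were named after their values were seen, as were members of lists named for their call in 1 cell type, *Top2a*, *Cdk1*, *Nfkb2* and *Ppbp*. The members, gene lists and tests were chosen with earlier results of these data known. Same-numbered naive and tumor samples had deviations from their group means that correlated at 0.25, 0.026 and 0.09 in FRCs and at 0.204, 0.226 and 0.147 in LECs, and since not every pair exceeded 0.1 the numbers were not taken to pair samples. The code was tested on simulated data. Alternatives changed the normalization, filter, choice of probe, strips, test and samples, used the bead intensities (45006 probes linked to bead codes by their profile), or left out each replicate.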

Additional observations from a re-analysis of the deposited data

Results flagged for a closer look

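Each result below is a tested difference between the tumor response of FRCs and that of LECs. The FRC change lay above the LEC change at 54 genes and below it at 26.

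Among genes measured in both cell types, the differences on the log2 scale were 4.44 for *Mmp9*, 4.36 for *Il4i1*, 4.11 for *Csf3*, 4.08 for *Srgn*, 3.88 for *Pf4*, 3.66 for *Serpina12*, 3.15 for *Akr1c12*, 3.04 for *Madcam1*, 3.00 for *Gja4*, 2.90 for *Brinp1*, 2.28 for *Mmp13* and 1.83 for *Itga1*. Among genes measured in FRCs alone they were 3.03 for *Tnn*, 2.69 for *Serpina11*, 2.53 for *Dsc3*, 2.45 for *Steap1* and 1.89 for *S1pr3*, and among those measured in LECs alone 1.82 for *Bmp2* and 1.45 for *Chrnb4*.

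In the other direction, the differences were -3.45 for *Adamtsl1*, -3.13 for *Adamtsl2*, -2.75 for *Cd276*, -2.63 for *Flrt1*, -2.08 for *Adamts18*, -1.97 for *Pcdh12*, -1.90 for *Rerg*, -1.74 for *Spire2*, -1.59 for *Gap43*, -1.59 for *Slc46a3* and -0.98 for *Dusp6* where both cell types were measured. They were -2.50 for *Kera*, -2.40 for *Frem1*, -1.99 for *a* and -1.65 for *Ppp2r2b* in FRCs alone and -1.32 for *Myo18b* in LECs alone.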

How the results depend on the processing

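No called gene's difference changed direction under any of 29 alternatives, while 5 genes that were not called crossed 0 in some (*Il15*, *Chst4*, *Pecam1*, *Pdgfrb* and *Ccl21a*). Of 2979 gene values, 568 lost their call and 27 gained one. Of 74 called genes with a name, 10 passed in all 29 alternatives (*Serpina12*, *Akr1c12*, *Gja4*, *Tnn*, *Serpina11*, *Dsc3*, *Adamtsl2*, *Flrt1*, *Frem1* and *Slc1a2*). The counts of 54 above and 26 below were less stable. They became 287 and 172 in a fit of the 12 FRC and LEC replicates, 101 and 52 with an unmoderated test there, 944 and 843 with array weights (whose estimation stopped before convergence), 33 and 17 with the second strip alone, and 13 and 7 without tumor LEC replicates 1 and 2, an alternative chosen after seeing the data that ended 57 of the 74 named calls. The lower count also became 43 with the mean of all kept probes, 15 with the first strip alone and 41 from log2 bead intensities, where differences of dim genes were smaller (*Serpina11* 1.53, *Dsc3* 1.44). Leaving out 1 replicate gave 30 to 113 above and 9 to 81 below. The replicate block, although the numbers were not taken as pairing, gave 15 above and 4 below, of which 14 and 4 were shared with the 54 and 26. It ended 58 of the 74 named calls, among them *Mmp9*, *Il4i1*, *Csf3*, *Pf4*, *Brinp1*, *Madcam1*, *Adamtsl1*, *Cd276* and *Adamts18*. All 6 LEC samples and 5 of 6 FRC samples correlated best with the sample of their own number, a hint from the data and not the design. The other alternatives gave 41 to 74 above and 25 to 35 below. Of 1479 list medians, 157 moved by more than 1 SD between replicates. The cause of each shift was not tested. Signals below 5.616 limit what can be said of genes at background in 1 cell type.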
